A study of Mus musculus with 4 samples.

Results

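The clustered protocadherins are cell-surface cadherins encoded by 3 neighbouring gene clusters, alpha, beta and gamma, on mouse chromosome 18. They were taken as every GENCODE M21 protein-coding gene whose symbol names a member of 1 of these clusters. This gave 57 genes of 35427 in the files, with 14 in the alpha cluster, 22 in the beta cluster and 21 in the gamma cluster. On mm10 all lie on the plus strand, the alpha cluster at 36930184 to 37187661, the beta cluster at 37264938 to 37524479 and the gamma cluster at 37661793 to 37841873. Their levels were compared between hippocampal RNA of sleep-deprived mice and of control mice. All mice were C57BL/6J, aged 4 months, carried P2RY12CreER and the Rpl22HA RiboTag allele, and had been fear conditioned. Sleep-deprived mice were kept from sleeping for 6 h after that training, and control mice could sleep for the same 6 h. The Cre is driven by the microglial gene P2ry12, so that tagged ribosomes should come from microglia, and RNA was recovered by an affinity pulldown of those ribosomes with selection of polyA RNA. Each sample pooled 2 mice, and there were 2 samples per group, assigned by title because the treatment field names sleep deprivation for all 4.

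Clustered protocadherins are known mainly from neurons, where each cell uses a few isoforms, and matching isoforms on 2 membranes bind each other and let a neuron recognise its own branches. In the alpha and gamma clusters each gene has its own large variable exon, which encodes the extracellular and membrane part. That exon is spliced to short constant exons shared by the whole cluster, which encode a common cytoplasmic tail. Beta genes consist of a variable exon alone and lack the common tail. The last genes of the alpha and gamma clusters, Pcdhac1, Pcdhac2, Pcdhgc3, Pcdhgc4 and Pcdhgc5, are called C-type and are used by many neurons at once, whereas the other promoters are chosen in a largely random way with the help of CTCF and cohesin.

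The files held 14473030 and 14431647 estimated reads in sleep-deprived and 14877011 and 14833320 in control samples. Within each group the counts of both files differed by less than sampling noise. For protocadherins with 20 reads or more, the chi-square divided by its degrees of freedom came to 0.129 for the sleep-deprived files (51 genes) and to 0.346 for the control files (55 genes), and it lay between 11.2 and 11.8 across groups. The files of a group were therefore counted as 1 sample, so each ratio below compares 1 library with 1 library, without a p-value. Levels are CPM, the estimated reads scaled by library size with TMM factors, and are given for both files. Ratios are sleep-deprived over control, with exact 95% intervals in brackets that cover counting error and hold nothing about differences between mice. A gene is called higher or lower when its ratio passes 2-fold and the interval leaves out 1. All 14 microglial markers were measured and none was at 0, with a summed level of 589 and 588 CPM in the sleep-deprived files, against 185 and 185 CPM in the control files. The 16 neuronal markers summed to 4221 and 4212 CPM in the sleep-deprived files, against 4645 and 4636 CPM in the control files, a ratio of 0.909 (0.899 to 0.919). The summed neuronal markers thus stood above the summed microglial ones in every file, and the part of each cell type in the protocadherin reads was not tested. Fewer cells of a type, less RNA per cell and a different share of its RNA in the pulldown cannot be told apart in these samples.

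How far a read can be assigned to 1 gene differs between the clusters. In the longest coding transcript of the beta genes, a median of 88.2% of all 31-base stretches, with a range of 77.5% to 100%, occurred in no other gene listed. For alpha genes the median was 36.4%, with a range of 2.18% to 51.6%, and for gamma genes it was 53.0%, with a range of 32.2% to 58.3%. The shared constant exons cover 2860 bases in the alpha and 2119 bases in the gamma cluster. Salmon divides the reads of those exons among the isoforms by a model, so sums over a cluster are safer than single alpha or gamma genes. The lowest value belongs to Pcdha4, whose first exon also holds the start of Gm42416, a gene listed at 0 reads in all 4 files. The symbol Pcdha11 stands for 2 genes, and the upstream one, ENSMUSG00000007440, begins at 37005203, where RefSeq places Pcdha10 on GRCm38.p6. No DNA or protein sequence of these genes is shown.

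Summed over all 57 genes the ratio lay below 1, and the clusters differed in their summed ratios. The summed level was 338 and 337 CPM in the sleep-deprived files, against 399 and 399 CPM in the control files, a ratio of 0.846 (0.814 to 0.879). The beta cluster had the lowest ratio at 0.653 (0.596 to 0.716), the alpha cluster followed at 0.762 (0.696 to 0.834), and the gamma cluster was at 0.939 (0.895 to 0.985). The gamma interval holds 1 with protein-coding transcripts alone (0.968, 0.919 to 1.02) and without Pcdhgc4 (0.966, 0.906 to 1.03). The ratio of the beta cluster was 0.696 times that of the gamma cluster (0.627 to 0.771) and 0.858 times that of the alpha cluster (0.754 to 0.976). The ratio of the alpha cluster was 0.811 times that of the gamma cluster (0.732 to 0.899), but the alpha ratio without Pcdha4 was 0.931 (0.844 to 1.03), next to the 0.939 of the gamma cluster.

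Of the 57 genes, 55 passed the filter on low counts, which needs about 10 reads in 1 library, and 14 of these were called, 1 higher and 13 lower. Among all 14907 measured genes, 9.91% were called, 4.37% higher and 5.54% lower. Of the 55, 41 had a ratio below 1, where 49.8% of all measured genes did. The interval lay wholly below 1 in 23, where 29.8% of all measured genes had such an interval, and wholly above 1 in 7, where 32.1% did. The called protocadherins were 6 alpha, 6 beta and 2 gamma genes. The median log2 ratio of the measured protocadherins was −0.28, against 0.0021 over all measured genes. Their median absolute log2 ratio was 0.87 in the alpha, 0.67 in the beta and 0.44 in the gamma cluster, against 0.37 over all measured genes. Counting error widens the ratios of genes with few reads, and the 0.37 was not matched for read count. The alpha genes spread widely to both sides of 0, while the beta genes lay mostly on 1 side.

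**Figure D1:**
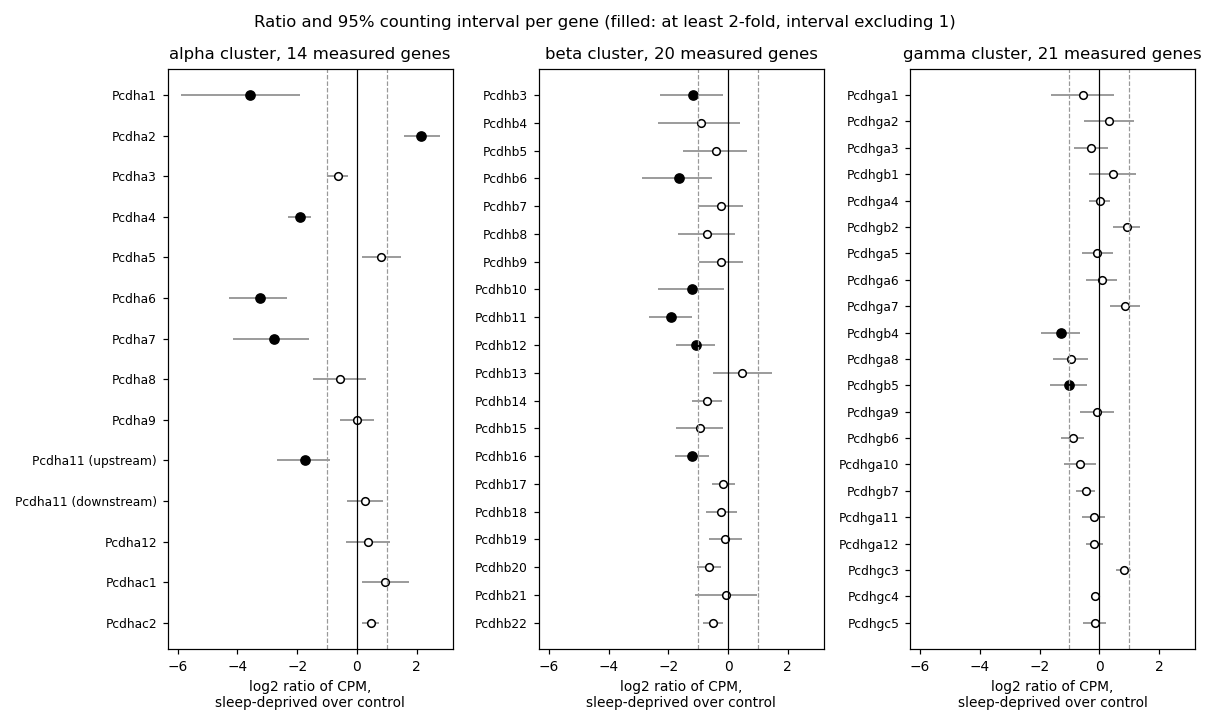
Log2 ratio of CPM, sleep-deprived over control, with the 95% counting interval for each measured gene of the alpha, beta and gamma clusters, in chromosomal order from top to bottom. Filled points are called genes (6 alpha, 6 beta, 2 gamma), dashed lines mark 2-fold, and in the beta panel only Pcdhb13 lies right of 0.

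In the beta cluster the reads were few but mostly assignable. The summed level was 54.0 and 54.2 CPM in the sleep-deprived files, against 83.1 and 82.4 CPM in the control files, from 763 reads in the sleep-deprived and 1252 in the control library. Of all 22 beta genes 21 were at a lower CPM in the sleep-deprived library, where 54.4% of all genes with a read were lower. Pcdhb13 was the exception, at 1.63 and 1.56 CPM in the sleep-deprived files, against 1.12 and 1.13 CPM in the control files, with an interval of the ratio that holds 1 (0.704 to 2.78). The 2 genes under the filter were Pcdhb1, with 0 and 0 reads in the sleep-deprived files, against 1 and 1 in the control files, and Pcdhb2, with 0 and 0 reads against 9 and 4.

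Of the 20 measured beta genes 6 were lower and 0 higher, where 5.54% and 4.37% of all measured genes were. In 10 the interval lay wholly below 1, where it did in 29.8% of all measured genes. Pcdhb11 showed the lowest ratio, with 21 and 21 reads in the sleep-deprived files, against 84 and 83 in the control files. In CPM this was 1.49 and 1.49 in the sleep-deprived files, against 5.55 and 5.50 in the control files, a ratio of 0.268 (0.158 to 0.437). Pcdhb6 had 0.637 and 0.639 CPM in the sleep-deprived files, against 1.92 and 1.99 CPM in the control files, a ratio of 0.322 (0.134 to 0.695). Pcdhb16 had 2.69 and 2.91 CPM, against 6.47 and 6.43 CPM in the control files, a ratio of 0.438 (0.295 to 0.638). The other called genes, Pcdhb3, Pcdhb10 and Pcdhb12, had ratios between 0.437 and 0.473.

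The most abundant beta genes were not called. Pcdhb22 had 8.63 and 8.65 CPM in the sleep-deprived files, against 12.3 and 12.1 CPM in the control files, a ratio of 0.707 (0.558 to 0.894). Pcdhb20 had 6.09 and 6.11 CPM in the sleep-deprived files, against 9.51 and 9.54 CPM in the control files, a ratio of 0.640 (0.484 to 0.842). Pcdhb17 had 7.65 and 7.67 CPM in the sleep-deprived files, against 8.45 and 8.61 CPM in the control files, and its interval holds 1 (0.689 to 1.17). The beta genes therefore shared a direction more than a size, with ratios between 0.268 and 1.39. With TPM the ratio of Pcdhb8 went from 0.613 to 1.40, and 18 of the 20 measured beta genes were below 1. Beside them, the neuronal markers had a summed ratio of 0.909. The beta sum was lower than that by a factor of 0.719 (0.656 to 0.788). Single neuronal markers had ratios between 0.580 and 1.71, with 10 of 16 below 1. The 8 astrocyte markers summed to 1183 and 1179 CPM in the sleep-deprived files, against 1998 and 1996 CPM in the control files, a ratio of 0.591 (0.580 to 0.603), below that of the beta cluster. The part of any cell type in the beta result was not tested.

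**Figure D2:**
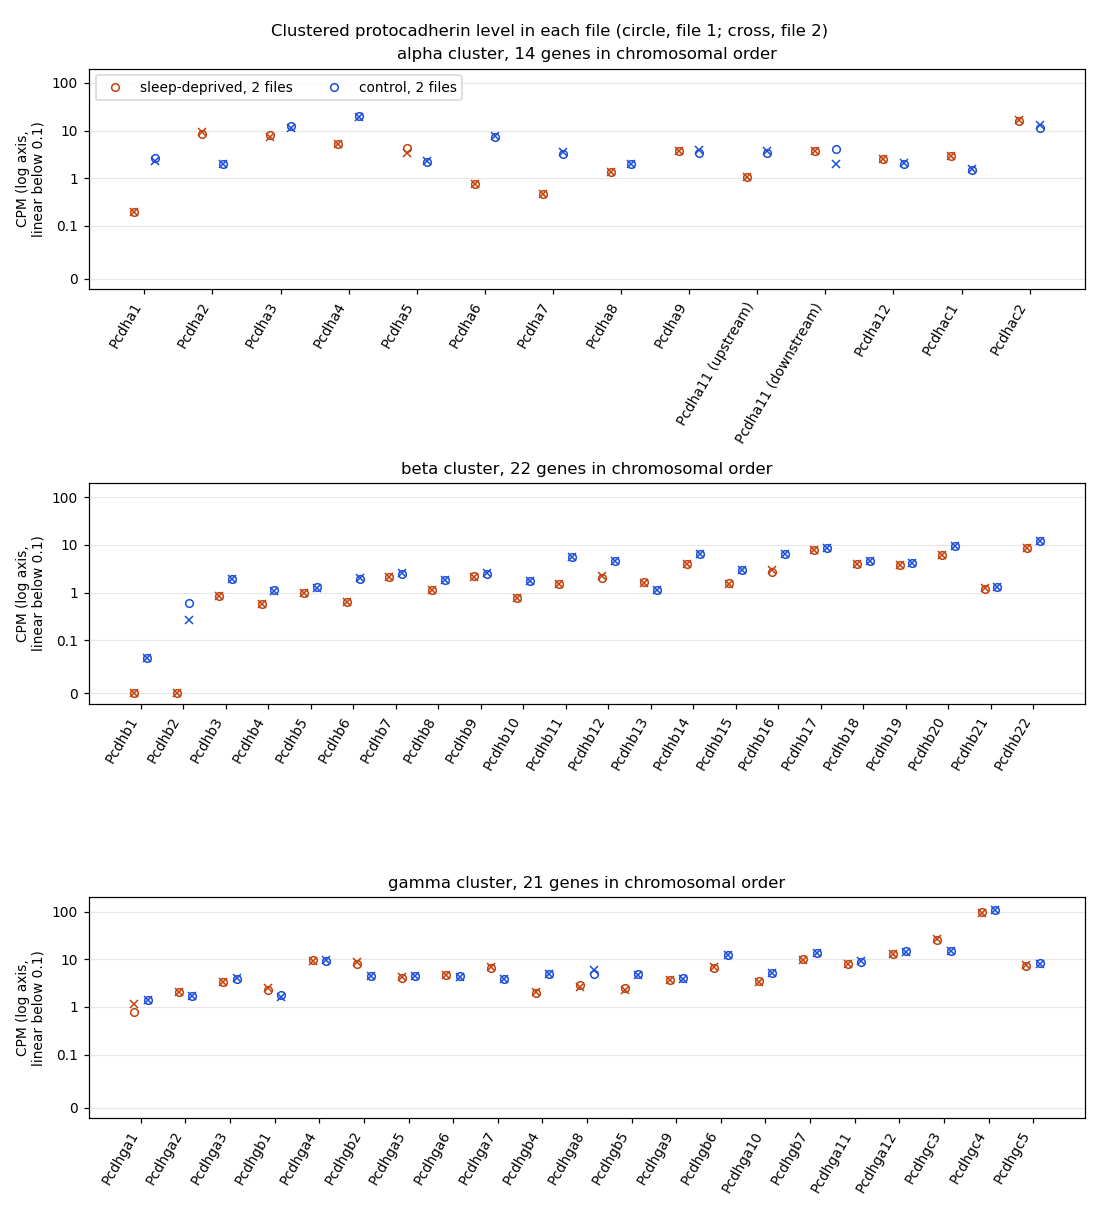
CPM of all 57 clustered protocadherins in each of the 4 files, on a log axis that is linear below 0.1, with genes in chromosomal order and sleep-deprived files left of control files. The 2 files of a group nearly coincide for most genes, 21 of 22 beta genes sit lower in the sleep-deprived files, and Pcdhgc4 stands between 96.0 and 107 CPM, above every other member.

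In the alpha cluster the reads that Salmon assigned to single isoforms went in opposite directions. The 12 variable genes summed to 39.7 and 38.7 CPM in the sleep-deprived files, against 64.5 and 62.3 CPM in the control files, a ratio of 0.618 (0.556 to 0.687). Pcdha2 was higher, at 8.37 and 9.19 CPM in the sleep-deprived files, against 1.95 and 1.99 CPM in the control files, a ratio of 4.43 (2.95 to 6.84). It was the 1 member called higher in any cluster, while Pcdhgb2 joined it with TPM (2.04) and Pcdhga12 with protein-coding transcripts alone (3.68). Pcdha4, the most abundant alpha gene in control, was lower at 5.20 and 5.23 CPM in the sleep-deprived files, against 20.03 and 19.3 CPM in the control files, a ratio of 0.267 (0.204 to 0.346). Pcdha6 was lower at 0.748 and 0.754 CPM, against 7.16 and 7.63 CPM in the control files, a ratio of 0.105 (0.0511 to 0.196).

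Pcdha7 was also lower, at 0.472 and 0.476 CPM in the sleep-deprived files, against 3.26 and 3.48 CPM in the control files, a ratio of 0.147. Pcdha1, on 3 reads in the sleep-deprived library, was at 0.195 and 0.199 CPM, against 2.71 and 2.30 CPM in the control files. Its ratio was 0.0847 (0.0167 to 0.267). Salmon put its reads on Pcdha1-201 in the sleep-deprived and on Pcdha1-202 in the control files. The upstream Pcdha11 gene was at 1.04 and 1.04 CPM in the sleep-deprived files, against 3.35 and 3.77 CPM in the control files, a ratio of 0.298 (0.156 to 0.536). The 5 alpha genes called lower stand at places 1, 4, 6, 7 and 10 of the 14 in the cluster. Pcdha3, among the 3 most abundant variable genes, was not called, at 8.15 and 7.16 CPM in the sleep-deprived files, against 12.5 and 11.5 CPM in the control files (ratio 0.640, 0.499 to 0.816).

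The summed alpha ratio depended on the reads that Salmon assigned to 1 gene, Pcdha4. Of the other 13 alpha genes, 4 were still called lower and 1 higher, and the 2 C-type genes in the sum had a ratio of 1.43. Without Pcdha4 the alpha sum was 53.7 and 53.2 CPM in the sleep-deprived files, against 57.0 and 57.6 CPM in the control files, and the ratio moved to 0.931 (0.844 to 1.03), an interval that holds 1. Within Pcdha4 the short coding transcript Pcdha4-201 was at 3.06 and 2.36 CPM in the sleep-deprived files, against 19.3 and 18.5 CPM in the control files. The longer Pcdha4-202 was at 1.88 and 2.76 CPM in the sleep-deprived files and was listed at 0 in both control files. Pcdha4-201 is 58.9% constant exon, and it held 4.63% of all alpha reads in the sleep-deprived and 24.5% in the control library. Leaving out Pcdha4 can thus also remove reads of the shared exons, unevenly between the libraries. The 0.931 is therefore not a cleaner value for the cluster. The downstream Pcdha11 gene, ENSMUSG00000102206, differed between the control files themselves, at 4.07 and 2.03 CPM, and was at 3.71 and 3.69 CPM in the sleep-deprived files.

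None of the 5 C-type genes was called, and 3 of them, Pcdhac1, Pcdhac2 and Pcdhgc3, had an interval wholly above 1. Pcdhac2, a C-type gene known from serotonergic axon tiling, was at 16.2 and 16.8 CPM in the sleep-deprived files, against 11.1 and 13.0 CPM in the control files, a ratio of 1.37 (1.13 to 1.68). Pcdhac1 was at 2.93 and 2.95 CPM in the sleep-deprived files, against 1.48 and 1.56 CPM in the control files, a ratio of 1.91 (1.12 to 3.34). The ratio of the 2 alpha C-type genes together was 1.43 (1.19 to 1.73), and it was 2.32 times that of the alpha variable genes (1.87 to 2.87). That contrast includes Pcdha4, at a ratio of 0.267, and was not computed without it. Both sets hold the shared constant exons, and the interval does not cover Salmon's division of their reads. C-type genes of both clusters held 44.4% of protocadherin reads (exact binomial 95% interval 43.0 to 45.8) in the sleep-deprived library and 36.0% (34.8 to 37.2) in the control library. Their summed level had a ratio of 1.04 (0.983 to 1.11), beside 0.846 for all members, and most of their reads belong to Pcdhgc4. Without Pcdhgc4 the other C-type genes held 15.7% of protocadherin reads in the sleep-deprived and 9.20% in the control library.

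Pcdhgc3, which promotes dendrite branching in cortical neurons, was at 25.8 and 26.5 CPM in the sleep-deprived files, against 14.9 and 14.8 CPM in the control files, a ratio of 1.76 (1.49 to 2.09). Its coding transcript Pcdhgc3-201 had a ratio of 1.57 (1.29 to 1.90). Its transcript annotated for nonsense-mediated decay, Pcdhgc3-202, was at 3.67 and 6.89 CPM in the sleep-deprived files and was listed at 0 in both control files. Pcdhgc5 was at 7.43 and 7.58 CPM in the sleep-deprived files, against 8.50 and 8.12 CPM in the control files, and its interval holds 1 (0.690 to 1.18). With protein-coding transcripts alone Pcdhgc5 was called lower, at a ratio of 0.0615. Its transcripts differed in direction. The coding Pcdhgc5-201 was at 0.223 and 0.230 CPM in the sleep-deprived files, against 3.58 and 3.45 CPM in the control files. The intron-retaining Pcdhgc5-202 was at 7.20 and 7.35 CPM in the sleep-deprived files, against 4.92 and 4.67 CPM in the control files.

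Pcdhgc4, the gamma isoform known to be needed for the survival of cortical interneurons, carried the highest level of all members. It was at 97.5 and 96.0 CPM in the sleep-deprived files, against 106 and 107 CPM in the control files, a ratio of 0.906 (0.842 to 0.974). Nearly all of this sat on Pcdhgc4-203, a transcript of 2272 bases that is 93.3% constant exon and holds only 153 bases of its own. That transcript took 41.4% of all gamma reads in the sleep-deprived and 41.6% in the control library. The full-length Pcdhgc4-201, which holds the whole variable exon, was at 1.37 CPM in the sleep-deprived and 2.49 CPM in the control library, a ratio of 0.536 (0.292 to 0.953). The level printed for Pcdhgc4 is thus mostly a count of reads in exons common to the gamma cluster, and cannot be read as use of its own promoter. Without Pcdhgc4 the other 4 C-type genes had a summed ratio of 1.45 (1.29 to 1.62), against 1.04 with it.

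**Figure D3:**
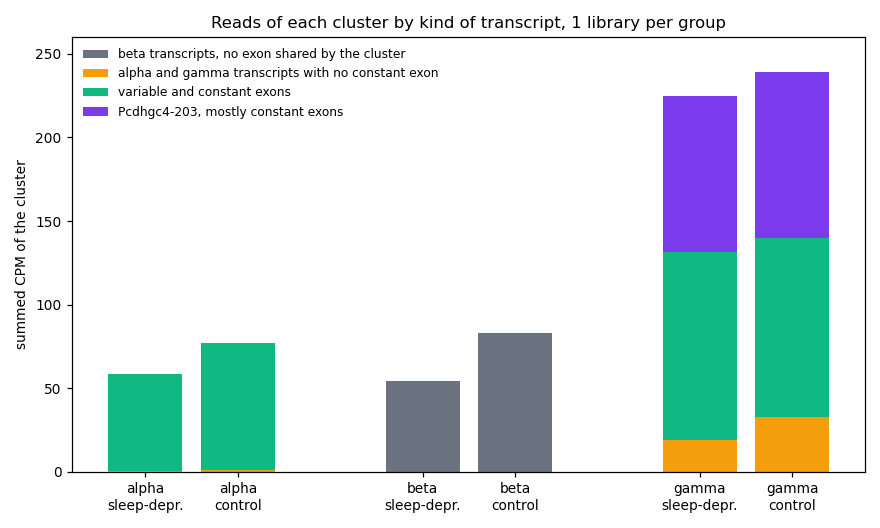
Summed CPM of each cluster in the sleep-deprived and control libraries, with the sleep-deprived bar on the left, split by whether a transcript holds constant exons. Pcdhgc4-203 alone makes up 93.0 CPM of the gamma bar in the sleep-deprived and 99.6 CPM in the control library.

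Among the remaining gamma genes 0 of 12 in the A class and 2 of 6 in the B class were called. Over the whole gamma cluster 9.52% of the 21 genes were called, near the 9.91% of all measured genes. The 12 gamma A genes summed to 62.8 and 62.2 CPM in the sleep-deprived files, against 66.7 and 68.3 CPM in the control files, a ratio of 0.926 (0.846 to 1.01). Pcdhga12, the most abundant of them, was at 13.2 and 12.9 CPM in the sleep-deprived files, against 14.7 and 14.4 CPM in the control files (0.892, 0.729 to 1.09). With protein-coding transcripts alone the ratio of Pcdhga12 turned to 3.68, and its retained-intron transcript holds most of its reads in both libraries. Pcdhga4 had a ratio of 1.01 (0.794 to 1.29) and Pcdhga11 one of 0.877 (0.677 to 1.13). The ends of the class, picked out after their values were seen, were Pcdhga8 at 0.517 (0.345 to 0.762) and Pcdhga7 at 1.81 (1.29 to 2.55).

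The 6 gamma B genes summed to 31.5 and 32.0 CPM in the sleep-deprived files, against 42.0 and 41.4 CPM in the control files, a ratio of 0.761 (0.673 to 0.861). Of these Pcdhgb4 was lower at 1.94 and 2.08 CPM in the sleep-deprived files, against 4.81 and 4.84 CPM in the control files (0.411, 0.256 to 0.644). Its reads in control sat on a processed transcript without constant exons. With protein-coding transcripts alone the control count was 0. The ratio against the floor of 3 reads was then 3.62, with an interval from 2.44 without an upper limit. Pcdhgb5 was lower at 2.54 and 2.27 CPM, against 4.95 and 4.66 CPM in the control files (0.499, 0.322 to 0.760), a call at the 2-fold limit that ended without control replicate 1 (0.520), without sleep-deprived replicate 2 (0.528) and with TPM (0.506). Pcdhgb6 was at 6.47 and 6.76 CPM in the sleep-deprived files, against 12.2 and 12.2 CPM in the control files (0.539, 0.416 to 0.695). Pcdhgb7 had a ratio of 0.730 (0.585 to 0.909). Pcdhgb2 lay on the other side, at 8.07 and 8.70 CPM in the sleep-deprived files, against 4.38 and 4.52 CPM in the control files (1.89, 1.39 to 2.59).

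Gamma transcripts also differed by kind. The 11 that hold no constant exon, most often annotated as retained introns, made up 8.43% of gamma reads in the sleep-deprived and 13.8% in the control library, a ratio of 0.575 (0.494 to 0.668). The 25 gamma transcripts with both variable and constant exons had a ratio of 1.06 (0.984 to 1.13). They include the intron-retaining Pcdhgc5-202, at 1.53 (1.12 to 2.10), and Pcdhgc3-202, which was at 0 in control. Single transcripts among the 11 went both ways, from 0.0894 for Pcdhga7-202 to 5.63 for Pcdhgb2-201, both on few reads. Pcdhga12-202, the most abundant of the 11 without a constant exon, was at 7.99 CPM in the sleep-deprived and 13.1 CPM in the control library, a ratio of 0.612 (0.481 to 0.775).

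**Figure D4:**
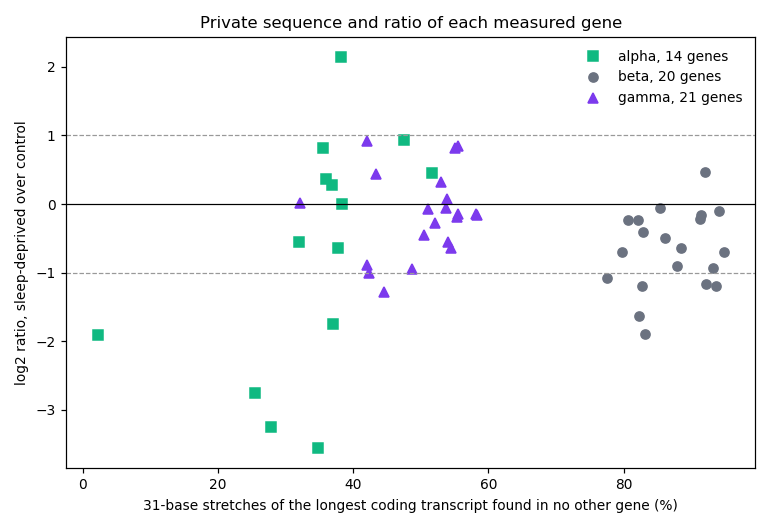
Log2 ratio of each measured gene, sleep-deprived over control, against the percentage of 31-base stretches of its longest coding transcript found in no other gene. The 20 beta genes stand at 77.5% or more, and the 14 alpha genes, at 51.6% or less, span the widest range of ratios.

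Level also differed by place in the cluster. Measured per length as the authors' TPM, beta genes nearer the end of the cluster tended to be at a higher level, with a Spearman correlation of order and TPM of 0.65 in the sleep-deprived and 0.57 in the control library over 22 genes. In the gamma cluster it was 0.61 in the sleep-deprived and 0.84 in the control library over 21 genes, and in the alpha cluster 0.05 in the sleep-deprived and −0.09 in the control library over 14 genes. Genes of a cluster share libraries, and in the alpha and gamma clusters also exons, so these values are descriptions. The first 11 beta genes, a division made after the values were seen, summed to 10.8 and 10.7 CPM in the sleep-deprived files, against 21.0 and 20.8 CPM in the control files. The last 11 summed to 43.3 and 43.5 CPM in the sleep-deprived files, against 62.1 and 61.6 CPM in the control files. The median level of a beta gene was 0.956 TPM in the sleep-deprived and 1.24 TPM in the control library, and the highest was that of Pcdhb20 at 3.45 TPM in the sleep-deprived and 4.64 TPM in the control library.

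Non-clustered protocadherins, single genes with related extracellular domains, had a summed ratio of 0.647 (0.607 to 0.690). Among 13 such genes 12 were measured, with 2 called lower, 0 called higher and a median log2 ratio of −0.50. Of all measured genes 5.54% were called lower and 4.37% higher. Pcdh9, the most abundant, was lower at 34.8 and 34.8 CPM in the sleep-deprived files, against 73.8 and 74.3 CPM in the control files (0.470, 0.421 to 0.523). Pcdh7 was lower at 8.57 and 8.52 CPM in the sleep-deprived files, against 20.5 and 20.5 CPM in the control files (0.415, 0.333 to 0.514). Pcdh1 was at 22.7 and 23.3 CPM in the sleep-deprived files, against 12.4 and 12.3 CPM in the control files (1.86, 1.55 to 2.24), under the limit. The ratio of the beta cluster was 1.01 times that of this list (0.903 to 1.13).

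None of the listed genes that act on the clusters or below them was called, where 9.91% of all measured genes were. All 24 regulators of cluster chromatin, among them cohesin subunits, its loaders and DNA methyltransferases, were measured, with 0 called and a median log2 ratio of 0.20. Their summed ratio was 1.19 (1.18 to 1.21), and 6 of the 24 had a ratio below 1. Nipbl, which loads cohesin onto DNA, was at 356 and 355 CPM in the sleep-deprived files, against 189 and 188 CPM in the control files (1.89, 1.80 to 1.98). Ehmt2, a histone H3 methyltransferase gene, had a ratio of 1.23 (1.17 to 1.28). Ctcf, which encodes the factor bound at most cluster promoters, is added here with its value known, at a ratio of 0.989 (0.921 to 1.06). Of 23 cytoplasmic partners and proteases 0 were called, with a median log2 ratio of −0.0017. Their most abundant members, Cyfip2 and Nckap1 of the WAVE complex, which binds the tails of some protocadherins, had ratios of 0.869 (0.832 to 0.906) and 0.985 (0.940 to 1.03).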

How the data were processed

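Each deposited file lists transcripts with the authors' estimated counts, unnormalized, and the authors' TPM, scaled by effective length, per the file headers. The submitters' processing notes name Salmon, DESeq2 and mm10, and strand use is not given in the sources used. Of 116546 transcripts 115898 were matched by identifier to GENCODE M21 on GRCm38 and summed to 35427 genes. The files of a group were averaged, rounded and scaled by TMM over all genes (edgeR 4.0.16, R 4.3.3). Measured genes are those that filterByExpr kept (minimum count 10). The edgeR quasi-likelihood and DESeq2 tests could not be run with 1 library per group, so a rule of size replaced them, tested on simulated data. Its floor for a library at 0 is 3 reads. Reads are not independent molecules, so intervals cover counting error only.

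Members and lists were chosen with earlier results of these data known. Named genes are the C-type genes, the 3 most abundant of each other class and every called member, and in other lists every called gene and the 2 most abundant. Calls in the marker lists are given in the closing section. Constant exons are positions within exons of at least 50% of a cluster's genes. Of 15 genes annotated on the opposite strand of the locus, 3 have transcripts in the files, and reads of opposite strands cannot be told apart. DESeq2 (1.42.0) size factors, upper-quartile and total scaling, no filter, TPM, protein-coding transcripts, other fold limits and each file left out were alternatives.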

Additional observations from a re-analysis of the deposited data

How the results depend on the processing

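The summed ratios of the alpha, beta and gamma clusters kept their direction under DESeq2 size factors, upper-quartile and total scaling, no filter, TPM, protein-coding transcripts and each file left out. The C-type ratio, near 1, was 0.992 with TPM. With a file left out the beta ratio lay between 0.650 and 0.656, the alpha ratio between 0.757 and 0.764, the gamma ratio between 0.935 and 0.940, the C-type ratio between 1.03 and 1.05, and the count of called members between 13 and 16. That count was 26 at a limit of 1.5-fold, where 25.9% of all measured genes were called, and 8 at a limit of 3-fold, where 4.10% were. Of 3 sums added after the data were seen, the alpha ratio moved to 0.931 without Pcdha4 and the C-type ratio to 1.45 without Pcdhgc4, while the gamma ratio without Pcdhgc4 was 0.966 with an interval that holds 1. With protein-coding transcripts only, the ratio of Pcdhgb4 turned to 3.62 against the floor of 3 reads in control. That of Pcdhga12 turned to 3.68 and that of the neuronal marker Eno2 to 0.427. Pcdhgc5 was called at 0.0615 in that setting, and the causes of these changes were not tested. With TPM the ratio of Pcdhb8 turned to 1.40. The calls of the 6 named alpha and 6 beta genes held under all 10 alternatives that keep the 2-fold limit, that of Pcdhgb5 under 7 and that of Pcdhgb4 under 9. All 10 kept Salmon's division of reads among isoforms and so did not test it. No paired analysis was possible because the files of a group counted as 1 library. Beta genes rest on few reads, and differences between mice could not be measured.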

Other observations

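Pcdhgb8, annotated as a polymorphic pseudogene in the gamma cluster and so not among the 57 genes, was at 6.30 CPM in the sleep-deprived and 8.65 CPM in the control library, a ratio of 0.729 (0.550 to 0.961). Taf7, a general transcription factor gene that lies between the beta and gamma clusters on the opposite strand, was at 8.72 CPM in the sleep-deprived and 12.1 CPM in the control library, a ratio of 0.725 (0.572 to 0.916). The 3 coding genes Gm42416, Gm37013 and Gm37388, annotated across the alpha and gamma clusters, were listed at 0 in all 4 files.

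Among the cell type markers 11 of 14 microglial genes were higher and 0 lower, with Selplg at 6.25 (4.93 to 8.01) and C1qa at 5.29 (4.56 to 6.18). Of 8 astrocyte markers 3 were lower and of 8 oligodendrocyte markers 2 were lower. Of 4 oligodendrocyte precursor markers Cspg4 was lower, and of 5 choroid plexus and ependymal markers Ccdc153 was lower, at 0.418 (0.305 to 0.566) and 0.227 (0.118 to 0.409). None of 16 neuronal and none of 5 endothelial markers was called. Over all measured genes 4.37% were called higher and 5.54% lower, and a call in a list of 4 or 5 genes says little. The summed ratio was 0.631 (0.622 to 0.640) for oligodendrocytes, 0.872 (0.806 to 0.942) for precursors, 0.988 (0.927 to 1.05) for endothelium and 1.02 (0.980 to 1.06) for choroid plexus and ependyma.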
